A study of Mus musculus with 12 samples.

Results

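The liver ribosome footprints of mice fed a high-fat diet without lycopene (HFD) were described across genes. They came from 3 Ribo-seq libraries, HFD1, HFD2 and HFD3, chosen by their labels from the 12 samples of the series, and no other library was compared with them. In Ribo-seq the RNA outside ribosomes is digested and the short pieces left inside them are sequenced, so that reads on a gene stand for ribosomes on its mRNA. The mice were male C57BL/6 animals that started the diet at 8 weeks of age and ate it for 8 weeks, and liver was taken at 16 weeks. All 3 mice had the same diet, and their tissue was treated with cycloheximide, which holds ribosomes on the mRNA, and with RNase I. The labels speak of pooling footprints ahead of library construction, and the methods of the study speak of pooling digested samples before the sucrose step. The study also describes the libraries as biological replicates, and each library was taken here as 1 mouse. With 1 group and 3 libraries, values are given as mean ± SD over the 3 mice (n = 3) and no test was run.

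The unit was RPKM, reads per kilobase of transcript scaled to the total reads of the library, as deposited. The table listed 25033 entries, of which 20676 were protein-coding genes. Library totals recovered from the steps between RPKM values were 2726202 reads in HFD1, 4405541 in HFD2 and 834410 in HFD3, and 77.5% to 89.3% of them lay on listed genes. On a transcript of 1 kb, 1 read was worth 0.367 RPKM in HFD1, 0.227 in HFD2 and 1.20 in HFD3. HFD3 was the shallowest library, and its low genes were the least precise. Protein-coding genes took 94.9% to 96.5% of the reads on listed genes. They are the base of every share below unless another base is named.

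As background, hepatocytes make most proteins of the blood plasma. These proteins enter the endoplasmic reticulum (ER) during translation and leave the cell by secretion. Hepatocytes also house the urea cycle, gluconeogenesis, bile acid synthesis and the oxidation of drugs by cytochromes P450. Male mouse liver in addition secretes major urinary proteins (MUPs), small carriers of pheromones that leave the body with the urine. The family lies as a tandem array of near-identical genes.

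The start codons of the highest genes are shown first, because ribosomes choose the start codon partly by its neighbouring bases. In the classical Kozak context a purine lies at position -3 and G at position +4, counted from the A of ATG as +1. Each line gives 20 bases of the RefSeq transcript on GRCm38.p6, 5′ to 3′, with the base at -3, the ATG and the base at +4 in capitals. The first 9 are the genes among the 30 highest by RPKM with a start context here whose reading frame opened with ATGAAG, and the next 5 show other contexts among the highest genes.
Alb: gcctctggcAaaATGAagtg
Mup2: ttccctaccAaaATGAagat
Mup20: ctatctaccAaaATGAagct
Apoa2: tagtctgccAtcATGAagct
Apoe: acaattgcgAagATGAaggc
Mup10: ttccctaccAaaATGAagat
Mup3: ttccctaccAaaATGAagct
Ahsg: tctggagcaAccATGAagtc
Gc: tctggtcgcAgaATGAagag
Scd1: ctgactatcAtcATGCcggc
Cyp2e1: cccatcggcAccATGGcggt
Hpx: ttgcagctcAgcATGGctag
Mgst1: aagattggaAgcATGGccga
Ftl1: tccggatcaGccATGAcctc

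The start codon of Alb lay at chr5:90460935-90460937 on the plus strand in exon 1, and that of Mup2 at chr4:60139784-60139786 on the minus strand in exon 1. That of Apoa2 lay at chr1:171225315-171225317 on the plus strand in exon 2, and that of Scd1 at chr19:44407407-44407409 on the minus strand in exon 1. Among the 30 highest genes with a context, 25 (83.3%) had A at -3, against 48.6% of 18879 genes with a context. A purine at -3 was present in 29 of the 30 (96.7%) and in 86.1% of all. G at +4 was less frequent among the 30 highest (8 genes, 26.7%) than among all (50.4%), and A at +4 was more frequent (18 genes, 60.0% against 21.9%). Outside the plasma and urinary protein classes the bases at +4 were close to those of all genes, with G in 51.0% and A in 19.0% of the 100 highest. A at -3 was present in 59.0% of these 100 genes. ATGAAG opened 9 of the 30 highest reading frames (30.0%), 22.3% of the 184 plasma protein genes, 2 of the 100 highest genes outside the plasma classes and 3.47% of all. Weighted by RPKM, 68.6% ± 2.60 of the footprint level lay on genes with A at -3. Members of the MUP family share a common sequence, so their contexts are not independent of each other, and no test was made.

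Translation in these livers was concentrated on few mRNAs. The highest gene of each mouse held 7.02%, 7.19% and 6.78% of the RPKM of protein-coding genes. The 10 highest held 28.1% ± 4.29, the 100 highest 50.8% ± 3.86 and the 1000 highest 79.3% ± 2.09. A share of 50% of the RPKM lay on 62 genes in HFD1, 129 in HFD2 and 93 in HFD3, and 90% lay on 2340, 2891 and 2513 genes. HFD1 was the most concentrated and HFD2 the least. With the MUPs left out, the share on the 10 highest genes was 23.6% in HFD1, 22.1% in HFD2 and 24.0% in HFD3. The choice of unit bears on this: as a share of reads, with no division by length, the 10 highest genes held 20.9%.

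**Figure D1:**
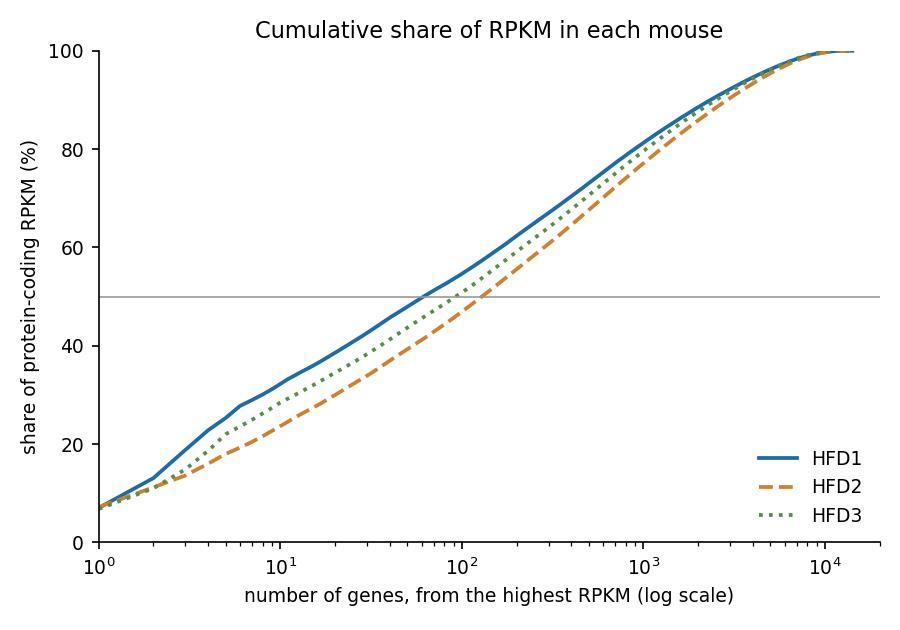
Cumulative share of the RPKM of protein-coding genes (%, y axis) against the number of genes counted from the highest RPKM (x axis, log scale), with a line for each of the 3 HFD mice; the grey line marks 50%. HFD1 reaches 50% with 62 genes, HFD3 with 93 and HFD2 with 129.

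Detection was broad beside this. Of the 20676 protein-coding genes, 12977 were above 0 in HFD1, 13448 in HFD2 and 11641 in HFD3, and 11179 (54.1%) were above 0 in all 3. Brought to the depth of HFD3 by expectation, HFD1 would show 11792 genes and HFD2 11909, close to the 11641 of HFD3. An RPKM of at least 1 in all 3 mice was held by 8852 genes, of at least 100 by 450 and of at least 1000 by 37. A value of 0 for 6556 genes in all 3 libraries says only that they were not detected at these depths. The median RPKM of the genes above 0 was 3.80 in HFD1, 4.17 in HFD2 and 4.56 in HFD3.

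The highest gene was Alb, which encodes serum albumin, with 25585 RPKM in HFD1, 29641 in HFD2 and 26176 in HFD3 (27134 ± 2191). Albumin took 6.68% ± 0.575 of the RPKM and stayed within 1.16-fold between the mice. Mup2 came next with 29644, 8194 and 14532 RPKM, and Mup20, which encodes the pheromone darcin, with 24239, 9868 and 14832 RPKM. In HFD1 the level of Mup2 was above that of Alb, and in HFD2 it held rank 5. Apoa2, an apolipoprotein of high-density lipoprotein, had 16810, 16547 and 13027 RPKM. Apoe, the apolipoprotein by which remnant particles are taken up, had 10605, 9902 and 16308 RPKM, and was highest in HFD3. The deposited RPKM of Apoa2 corresponds to a length of 385 bases, that of a RefSeq variant without a coding sequence. Mup10 came next with 10366, 4357 and 6238 RPKM.

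Among the other genes of the 30 highest, Ttr, the carrier of thyroxine and of retinol-binding protein, was even between the mice with 5149, 5337 and 4966 RPKM. Trf, which encodes transferrin, had 4701, 4850 and 5195 RPKM. Serpina1a, an inhibitor of elastase, had 4147 ± 512 RPKM and Apoa1, the main protein of high-density lipoprotein, 4082 ± 436 RPKM. Both lay within 1.28-fold between the mice. Fabp1, the fatty acid binding protein of the hepatocyte cytosol, had 3753 ± 595 RPKM and was the highest gene whose product is neither secreted nor a MUP. Scd1, the desaturase that makes oleate from stearate, followed with 2362, 4767 and 2841 RPKM. It was the highest membrane enzyme and stood at rank 12 by its mean, at rank 18 in HFD1 and at rank 8 in HFD2.

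The rest of the 30 held 2 enzymes of xenobiotic metabolism, Cyp2e1 (2493 ± 384 RPKM), a cytochrome P450 that oxidises ethanol, and Mgst1 (2245 ± 242), a microsomal glutathione transferase. They also held Ass1 (1399 ± 164), which joins citrulline and aspartate in the urea cycle, and Ftl1 (1891 ± 565), the ferritin light chain. The further plasma proteins were the fetuin Ahsg, the heme carrier Hpx, the vitamin D carrier Gc, Rbp4, Apoc1, Apoc3, the selenium carrier Selenop, haptoglobin Hp, and the fibrinogen chains Fgb and Fgg, with 1375 to 2328 RPKM. Gm20594, a gene with an annotated coding sequence of 114 bases, had 2523, 1127 and 1324 RPKM. When each mouse was ranked on its own, 23 genes were among the 30 highest in all 3 mice, 81 among the 100 highest and 867 among the 1000 highest.

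**Figure D2:**
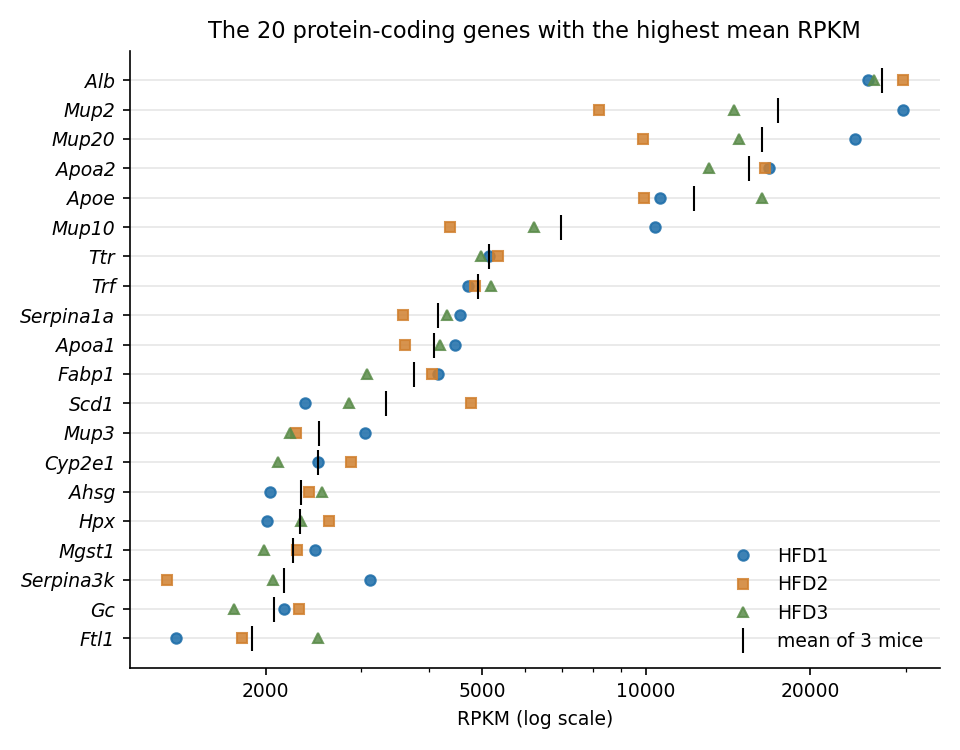
RPKM (x axis, log scale) of the 20 protein-coding genes with the highest mean, with a symbol for each of the 3 HFD mice and a vertical bar for their mean. Alb is highest by mean at 27134 RPKM, and Mup2, Mup20, Mup10 and Serpina3k show the widest gaps, each with HFD1 highest and HFD2 lowest.

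To describe these levels by function, 1375 genes were assigned to 33 classes, each gene to 1 class. Of these, 1304 (94.8%) were above 0 in all 3 mice, against 54.1% of all protein-coding genes. The lists hold genes known from liver or from every cell, so this difference follows from their choice. The classes together held 71.7% of the RPKM. The 7 classes of plasma and urinary proteins, 188 genes, held 42.1% ± 5.04, with 46.9% in HFD1, 36.9% in HFD2 and 42.5% in HFD3. Their share was lower, 32.9% ± 3.33, when reads were not divided by length, and 33.6% ± 5.27 when reads were divided by the coding length.

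Albumin and the plasma carriers held 12.7% ± 1.02, of which Alb alone made 52.5% ± 0.336. The MUPs held 11.8% ± 5.83, with 18.0% in HFD1, 6.49% in HFD2 and 10.9% in HFD3, a range of 2.78-fold. Apolipoproteins held 9.95% ± 0.662, led by Apoa2, Apoe and Apoa1. Protease inhibitors held 3.95% ± 0.372, led by Serpina1a, Serpina3k and Pzp (1220 ± 132 RPKM), an inhibitor of the alpha-2-macroglobulin family. Coagulation factors held 1.77% ± 0.0628, complement 1.23% ± 0.0740 and the acute phase proteins 0.650% ± 0.0347. Complement was led by C3 (1190 ± 209 RPKM), on which all complement pathways meet, by Clu and by C4b, and the acute phase class by Hp, by the iron hormone Hamp (344 ± 73.4 RPKM) and by Orm1 (254 ± 7.40 RPKM). Without the MUPs the plasma classes held 28.9%, 30.4% and 31.6% of the RPKM (30.3% ± 1.34), with the MUPs kept in the total. With the MUPs out of the total as well, they held 35.2%, 32.5% and 35.4% (34.4% ± 1.65), and HFD2 was lowest.

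Of the metabolic classes, amino acid catabolism and the urea cycle was the largest with 4.32% ± 0.556, led by Ass1, Bhmt (1367 ± 95.1 RPKM), which methylates homocysteine with betaine, and Adh1 (980 ± 153 RPKM), an alcohol dehydrogenase kept in this list. Conjugation and ester hydrolysis held 2.97% ± 0.142, with Mgst1, Gstp1 and Gsta3 in front, and cytochromes P450 held 2.18% ± 0.0880, with Cyp2e1, Cyp2f2 and the electron donor Cyb5a in front. Glycolysis, gluconeogenesis and glycogen held 1.81% ± 0.258. The antioxidant class held 1.36% ± 0.157 and was led by catalase (Cat, 1121 ± 132 RPKM), Gpx1 and Sod1. Bile acid synthesis and transport, led by the uptake carriers Slco1b2 and Slc10a1, held 0.410% ± 0.0506.

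The diet was rich in fat, so the lipid classes are given on their own. Fatty acid binding, uptake and activation held 1.90% ± 0.184, and Fabp1 made 48.4% ± 1.89 of it. Fatty acid oxidation and ketogenesis held 1.71% ± 0.289. Among its 3 highest genes was Phyh, which hydroxylates phytanoyl-CoA in the peroxisome, with 644, 657 and 523 RPKM (608 ± 74.0). Fatty acid and glycerolipid synthesis held 1.58% ± 0.423 of the RPKM, and Scd1 made 50.9% ± 5.32 of it. The elongase Elovl5 (352 ± 83.4 RPKM) and the desaturase Fads2 (305 ± 74.6 RPKM) came next in that class. Lipid droplet proteins and lipases held 0.321% ± 0.0442, led by Plin2 (411 ± 71.5 RPKM), which coats lipid droplets, Hsd17b13 and Cideb. Cholesterol synthesis and uptake held 0.408% ± 0.0332.

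Each class of the machinery common to cells took a smaller share than the plasma proteins together. Respiratory complexes and cytosolic ribosomal proteins each held more than the coagulation, complement or acute phase class. Nuclear-encoded subunits of the respiratory complexes held 2.42% ± 0.0965 and cytosolic ribosomal proteins 2.44% ± 0.255. Translation factors held 0.911% ± 0.0971, of which Eef1a1, which brings aminoacyl-tRNA to the ribosome, made 33.0% ± 2.25. ER translocation and folding, the route of every secreted protein above, held 1.04% ± 0.135, led by P4hb, Calr and Hspa5. Chaperones of cytosol and mitochondria held 0.596% ± 0.0458, the proteasome and ubiquitin 0.566% ± 0.0139 and the cytoskeleton 0.418% ± 0.0105. Iron and metal storage held 0.648% ± 0.171, of which Ftl1 made 71.6% ± 6.09. The citric acid cycle with pyruvate dehydrogenase held 0.409% ± 0.0483, lysosomal hydrolases and cathepsins 0.355% ± 0.0430 and mitochondrial ribosomal proteins 0.296% ± 0.0287. At the lower end stood liver transcription factors and nuclear receptors (0.240% ± 0.0327), splicing factors (0.195% ± 0.0110), clock genes (0.0504% ± 0.00971) and immediate early genes (0.0410% ± 0.00225). No gene of the mitochondrial genome was matched in the table, so that part of the respiratory chain was not analysed here.

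**Figure D3:**
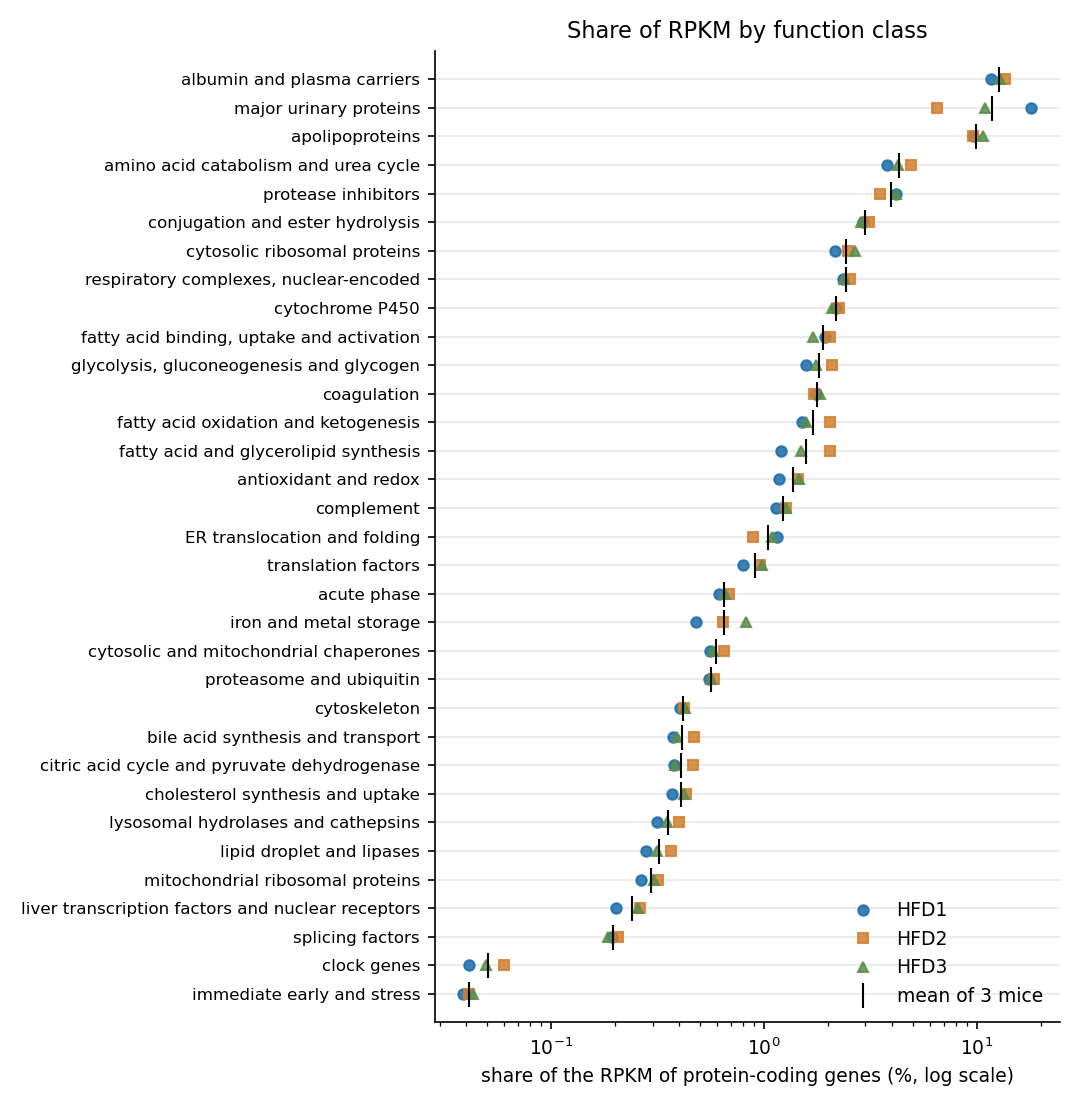
Share of the RPKM of protein-coding genes (%, x axis, log scale) held by each of 33 function classes, with a symbol for each of the 3 HFD mice and a vertical bar for their mean. Shares run from 12.7% for albumin and plasma carriers to 0.0410% for immediate early genes, and the MUPs are the class whose 3 symbols lie farthest apart.

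RPKM divides by the whole transcript, while ribosomes translate the coding part alone. The median gene had 59.4% of its transcript length in the coding sequence. The same reads were therefore also divided by the coding length in place of the transcript length, named coding density here. Alb, Mup2, Mup20, Apoa2 and Apoe kept ranks 1 to 5 with coding densities of 30610 to 16690. Scd1 moved from rank 12 to rank 6, with a coding density of 15052, as its transcript of 4837 bases holds a coding sequence of 1068 bases. By this measure Scd1 stood beside Ttr, whose coding density was 14164. Scd1 shares 40.2% of its 28-base windows, the size of a footprint, with other coding transcripts, and Serpina1a 87.8%, so that their single levels depend on where shared reads were placed. The fatty acid and glycerolipid synthesis class held 3.03% ± 0.865 of the coding density and 3.35% ± 0.783 of the reads, against 1.58% of the RPKM. Ribosomal proteins moved the other way when reads were taken without length, with 0.936% ± 0.0799 of the reads against 2.44% of the RPKM. The lists of the 30 highest genes by both measures shared 26 genes. B2m, Tmbim6, Bhmt and Mup14 entered by coding density.

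**Figure D4:**
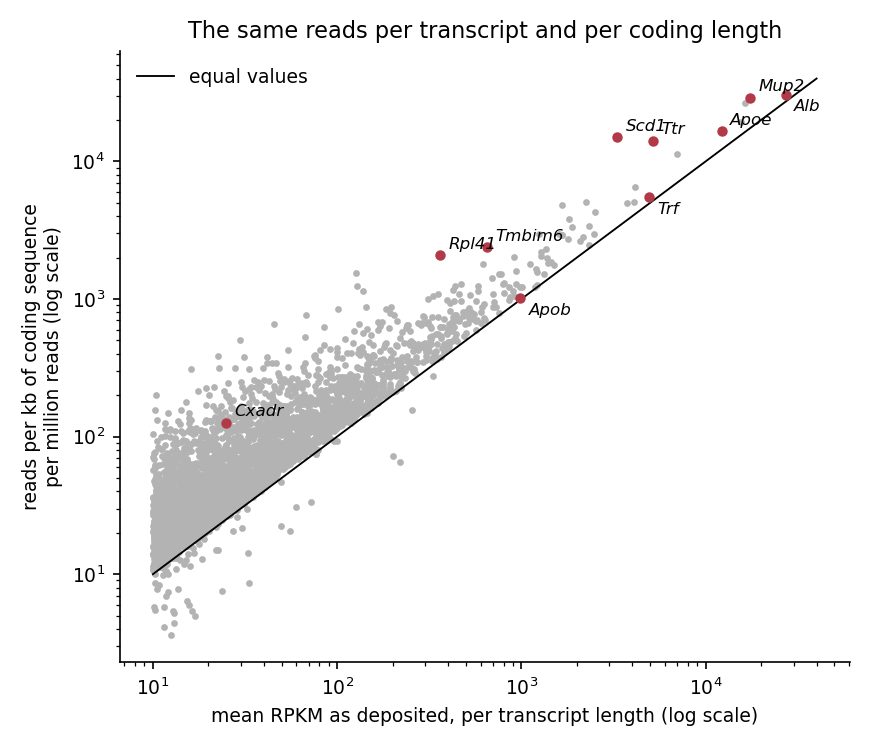
Coding density (reads per kilobase of coding sequence and library total, y axis, log scale) against mean deposited RPKM (x axis, log scale) for protein-coding genes with a mean of at least 10 RPKM, means of 3 HFD mice; the line marks equal values. Scd1 lies farther above the line than Alb or Trf, at 3324 RPKM and a coding density of 15052.

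The mRNAs with the highest RPKM, a level per transcript length, did not have long coding sequences. The mean coding length was 548 codons over all genes and 408 ± 22.6 codons when weighted by RPKM. The 30 highest genes had a median of 328 codons, and all genes one of 403. Codon use moved little with the weighting: CTG made 38.4% of leucine codons over all genes and 41.7% ± 0.550 when weighted, and AAG made 59.1% of lysine codons over all genes and 62.6% ± 0.444 when weighted. Without the MUPs the weighted shares were 42.2% and 62.3%. For glutamate the direction turned on the MUPs: GAG made 58.2% of its codons over all genes, 56.0% ± 1.58 when weighted and 58.8% when weighted without the MUPs. Codons ending in G or C made 57.8% over all genes and 58.0% ± 0.691 when weighted.

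Subunits of the same complex were compared for how even footprint levels are among partners. The value is the ratio of the highest to the lowest subunit in coding density. The 2 chains of the electron transfer flavoprotein, Etfa and Etfb, which pass electrons from fatty acid oxidation, had coding densities of 205 and 210 by their means, and their ratio within a mouse was 1.32 ± 0.115. The 2 chains of the mitochondrial trifunctional protein, Hadha and Hadhb, differed by 1.30 ± 0.157, and those of pyruvate dehydrogenase E1 by 1.38 ± 0.221. The 3 fibrinogen chains differed by 1.63 ± 0.269, with Fgg highest and Fga lowest. Fga has a long and a short coding form in RefSeq. With the shorter form of 1674 bases in place of 2370, the fibrinogen ratio was 1.36, 1.09 and 1.02 in the 3 mice.

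Other partners were less even. In ferritin, whose shell takes both chains in a mix that varies between tissues, the light chain Ftl1 was above the heavy chain Fth1 by 2.30-fold, 2.29-fold and 4.14-fold in coding density. In propionyl-CoA carboxylase Pccb was above Pcca by 3.75-fold ± 0.629. In complement C8 the gamma chain C8g was above the beta chain C8b by 5.19-fold, 11.7-fold and 4.22-fold, and C8b was lowest in HFD2 with 33.8 RPKM against 83.9 and 80.4. The asialoglycoprotein receptor had Asgr1 above Asgr2 by 2.55-fold ± 0.522. The rings of the 20S proteasome spanned 2.82 ± 0.119 (alpha, 7 genes) and 2.32 ± 0.555 (beta, 7 genes), and the chaperonin CCT, 8 genes, spanned 2.35 ± 0.349. Of 79 cytosolic ribosomal protein genes, 65 lay within 2-fold of their median coding density of 163. Among those under 1/5 of it, Rps27 shared 100% and Rpl37 89.5% of their footprint-sized sequence with other places among the coding transcripts, and where such reads were placed is not stated. Rpl34, which shares 82.9%, and Rpl31, which shares 76.4%, had coding densities of 205 and 135, near the median.

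The libraries were alike over the range of levels. Pearson's r of log2(RPKM + 1) over 25033 entries was 0.977 between HFD1 and HFD2, 0.967 between HFD1 and HFD3 and 0.969 between HFD2 and HFD3. These values are across genes, which are not independent replicates, and they share the zeros of unexpressed genes. The median gene stood higher in HFD2 than in the others: factors from medians of ratios were 0.936 in HFD1, 1.15 in HFD2 and 0.930 in HFD3, a shift of the median gene of -0.10, 0.20 and -0.10 on the log2 scale. For spread, 3086 genes with at least 300 reads were used, and the part of the coefficient of variation (CV) above the counting error, the excess CV, was taken. Its median was 0.156 as deposited and 0.104 after scaling by these factors. Without HFD2 it was 0.0539 as deposited, so that HFD1 and HFD3 were the closest pair on this measure.

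The MUPs had the largest median excess CV, 0.708 as deposited and 0.746 after scaling, over 13 genes with 300 reads. Clock genes (0.246, 8 genes), lipid droplet proteins and lipases (0.231, 11 genes) and fatty acid and glycerolipid synthesis (0.207, 29 genes) came next among classes of at least 8 genes as deposited, and after scaling they stood at 0.0936, 0.101 and 0.117, near the 0.104 of all genes. Translation factors (0.0687), cytoskeleton (0.0688), coagulation (0.0785) and respiratory complexes (0.0977) had low values as deposited. After scaling the citric acid cycle with pyruvate dehydrogenase (0.0501, 21 genes) and the class of glycolysis, gluconeogenesis and glycogen (0.0571, 35 genes) were lowest, and the cytoskeleton was at 0.142. The order of the less variable classes thus depends on the scale, and that of the MUPs does not. When 1 mouse was left out, class medians moved by more than the SD of these leave-one-out medians in 43 of 99 cases. That limit comes from the same values it judges, so the count cannot show how stable the medians are. With each mouse left out in turn, the MUP median ran from 0.414 to 0.961 as deposited. The coagulation median ran from 0.0184 to 0.0957, so both depend on the mice taken.

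**Figure D5:**
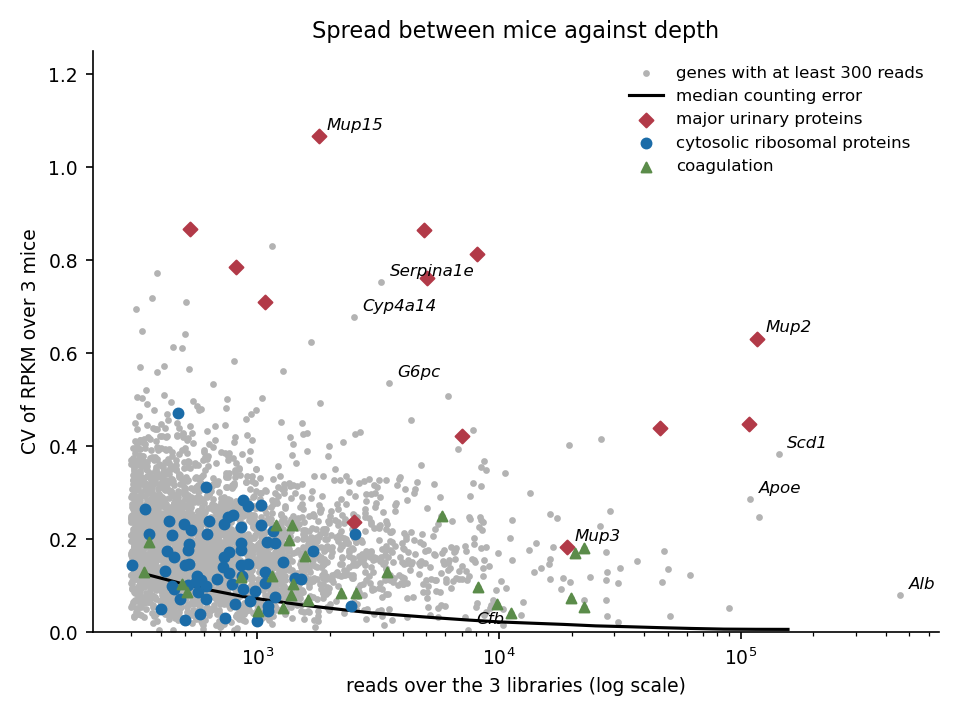
CV of RPKM over the 3 HFD mice (y axis) against reads over the 3 libraries (x axis, log scale) for protein-coding genes with at least 300 reads; the black line is the median counting error in bins of reads, and 3 classes are marked. Most MUP genes lie above the bulk of genes, up to Mup15 at a CV of 1.07, Mup3 lies within it at 0.184, and coagulation genes lie near the bulk of genes or below it.

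Most MUP genes moved together. Mup15 had the largest excess CV of the 3086 genes, with 601, 56.2 and 158 RPKM, an excess CV of 1.06 as deposited and 1.09 after scaling. Mup12 had 1547, 172 and 688 RPKM, Mup14 had 2368, 291 and 1188 RPKM and Mup19 had 1460, 278 and 646 RPKM. In 12 of 13 MUP genes with 300 reads, HFD1 was highest, HFD3 next and HFD2 lowest, an order held by 185 of all 3086 genes. Mup3 varied least of the high MUP genes, with 3044, 2279 and 2215 RPKM. These genes are not separate measurements, as each of the 13 shares 40.8% to 100% of its 28-base windows with other coding transcripts. The coding sequences of Mup10 and Mup15 are 99.3% and 99.6% identical to that of Mup2. How reads that match several genes were assigned is not stated, so the level of a single member is uncertain, and the share of the family, 18.0%, 6.49% and 10.9%, is the firmer value. Over all protein-coding genes, 2502 of 20624 with a sequence (12.1%) share more than 20% of their windows, and they held 20.3% of the mean RPKM.

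The 12 most variable genes with at least 1000 reads as deposited held, beside listed MUP genes, 2 serpins, Gm2083 and 3 metabolic genes. Serpina1e, a gene of the alpha-1-antitrypsin family, had 490, 90.6 and 758 RPKM, lowest in HFD2 and highest in HFD3, and shared 60.9% of its windows. Serpina3f had 119, 44.7 and 53.2 RPKM. Gm2083, a synonym of Mup13 in RefSeq, lies in the MUP array at chr4:61224308-61228252, shares 100% of its windows and was not counted in the MUP class. It had 356, 44.6 and 166 RPKM, in the order of the MUPs. The table also lists Mup13 under its own name, with 0, 0.515 and 0 RPKM. Cyp4a14, a fatty acid hydroxylase of the cytochrome P450 family, had 51.0, 182 and 75.4 RPKM, and Cd36, a fatty acid transporter of the cell surface, had 31.3, 81.4 and 29.2 RPKM. G6pc, the last enzyme of gluconeogenesis, had 89.8, 269 and 151 RPKM. Cyp4a14, Cd36 and G6pc were highest in HFD2 and kept an excess CV of 0.548, 0.486 and 0.419 after scaling. Hspa5 and Slco1a1, not among the 12, then had 0.572 and 0.554, so which genes make up the 12 depends on the scale.

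Among 932 genes with at least 1000 reads, 79 had an excess CV of at least 0.3 as deposited. HFD2 was highest in 47 of them (59.5%), HFD1 in 25 (31.6%) and HFD3 in 7 (8.86%), against 73.1%, 16.4% and 10.5% of all 932 genes, so that HFD2 took a smaller share of the variable genes than of all. After scaling 59 genes had an excess CV of at least 0.3, with HFD1 highest in 38, HFD3 in 14 and HFD2 in 7, against 37.6%, 31.4% and 31.0% of the 932. Of the 79 genes 38 kept this spread on both scales, all 25 that were highest in HFD1, 7 of the 47 of HFD2 and 6 of the 7 of HFD3. Which mouse led the variable genes thus depends on the scale. The 4 genes named next in each direction were chosen after their values were seen, apart from the markers Tat and Pck1 and the class leaders Hspa5 and Serpina3k. High in HFD2 beside G6pc were Pck1 (253, 530 and 405 RPKM), which feeds gluconeogenesis, the tyrosine aminotransferase Tat (282, 548 and 441), Cpt1a (73.6, 140 and 94.5), the gate of mitochondrial fatty acid entry, and Ppara (35.1, 62.4 and 38.1), the receptor that responds to fatty acids. High in HFD1 and low in HFD2, like the MUPs, was the ER chaperone Hspa5 (492, 174 and 285 RPKM). The ER chaperones Hsp90b1 (296, 157 and 203) and Pdia4 (154, 76.0 and 105) and the serpin Serpina3k (3110, 1316 and 2065) had the same order. After scaling the highest mouse of each of the 8 genes stayed the same, though for Tat by little, with 477 in HFD2 and 474 in HFD3. The size of the spread did not hold alike: the excess CV of Pck1, Tat, Cpt1a and Ppara fell to 0.265, 0.239, 0.211 and 0.195 after scaling, under 0.3, and that of Hspa5, Hsp90b1, Pdia4 and Serpina3k was 0.572, 0.400, 0.426 and 0.488. The whole class of ER translocation and folding, 71 genes, held 1.15%, 0.890% and 1.09% of the RPKM. Its median excess CV was 0.142 as deposited, against 0.156 of all genes, and 0.175 after scaling, against 0.104. Its highest gene, P4hb, made 8.17%, 10.2% and 8.75% of the class, the largest part in HFD2. The 3 mice of 1 group give no test of these patterns.

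Of the 932 genes with at least 1000 reads, 47 had an excess CV of 0 as deposited. The lowest of them by CV was Cfb, complement factor B, with 343, 340 and 342 RPKM. Next came Sec61a1, the pore of the ER translocon, with 71.2, 71.7 and 73.0 RPKM, and Serpina1b with 904, 913 and 933 RPKM. Itih1, Krt8, Copa, Serpinf1 and Cxadr followed. All 8 differed between the mice by no more than their counting error as deposited. After scaling their excess CV was 0.0618 to 0.119, so their evenness holds for the deposited scale alone.

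The tissue label was checked against markers of the cell types a liver sample can hold. The 10 hepatocyte markers were above 0 in all 3 mice and summed to 45540 to 49071 RPKM. Markers of both zones of the liver lobule were present: Glul, of the hepatocytes at the central vein, had 289, 342 and 258 RPKM, and Cyp2f2, of the periportal side, had 571, 540 and 614 RPKM. The 12 markers of Kupffer cells and macrophages were all above 0 and summed to 223 to 314 RPKM, with Cd5l, Lyz2 and Clec4f highest. The 10 endothelial markers summed to 107 to 153 RPKM and those of stellate cells to 104 to 185 RPKM, of which Dcn made 120, 89.8 and 62.8 RPKM. Of 10 cholangiocyte markers 6 were above 0 in all 3 mice, and the list summed to 50.1 to 62.8 RPKM. Most of this lay on Anxa4, Spp1 and Tstd1, with means of 20.3, 16.9 and 12.4 RPKM. The median marker had 1.99 RPKM, and Krt19 had 0.797, 0.493 and 0 RPKM. In bulk tissue fewer cells of a type and less RNA per cell cannot be told apart.

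Other cells gave little signal or a signal on single genes. Of 10 markers of monocytes, neutrophils and lymphocytes, 2 were above 0 in all 3 mice, and the list summed to 4.00 to 10.9 RPKM. Of 10 adipocyte markers Lep, Plin1, Retn and Ucp1 were at 0 throughout, and Car3, which hepatocytes also make, gave 770, 735 and 818 of a sum of 752 to 828 RPKM. Of 10 pancreatic markers 7 were at 0 in all libraries, and the list summed to 24.5 to 28.5 RPKM. Amy2a5 had 14.7, 17.7 and 14.4 RPKM and Cela1 had 8.62, 7.80 and 14.1 RPKM. Erythroid markers summed to 634, 1433 and 962 RPKM. Hba-a2, an alpha globin, had 310, 781 and 551 RPKM, and Hbb-bs, a beta globin, had 265, 574 and 339 RPKM. Both were highest in HFD2, the mouse in which the genes of gluconeogenesis named above were highest too. As deposited, HFD2 was highest in 73.1% of the 932 genes with at least 1000 reads, so this is the common case. The part of blood in the values of the gluconeogenesis genes was not tested. Alas2, which opens heme synthesis in red cells, was instead highest in HFD3 with 38.7, 44.7 and 56.9 RPKM. Hbb-bt, a further beta globin, had 10.5, 26.3 and 9.51 RPKM. Hba-a1 and Hbb-b1 rested on 30 and 4 reads over the 3 libraries, too few to order the mice. Hba-a2 shares 93.0% of its windows with other coding transcripts, and Hbb-bs and Hbb-bt share 93.3% each, so the split of reads among the globin genes is uncertain.

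Small RNA genes are no mRNAs, but their fragments can pass a footprint preparation. They took 4.12%, 3.63% and 2.57% of the reads on listed genes and, being short, 53.6%, 54.2% and 44.9% of the RPKM of all entries. The 5 highest were Rnu6, a spliceosomal RNA, with 116605, 91165 and 66536 RPKM, Snord14d with 75372, 106368 and 86236, Snord118 with 44285, 43906 and 24153, Mir16-1 with 52809, 35735 and 19059, and Mir451a with 19217, 50817 and 17561 RPKM. The RPKM of Rnu6 and Snord14d rests on lengths of 27 and 23 bases in the deposited tables, so that 8583 reads in HFD1 gave Rnu6 its value. Of 1227 microRNA genes 111 were above 0 in all 3 mice. Of the 7 microRNA genes with the highest mean RPKM, 6 are shown with their mature RNAs from RefSeq (GRCm38.p6), all but Mir30d. These mature RNAs of 22 to 23 bases are shorter than the 28 bases taken here for a footprint, and read lengths are not given. Where both arms are listed, the 5′ arm is shown. Bases 2 to 8, the seed, are in capitals.
mmu-miR-16-5p: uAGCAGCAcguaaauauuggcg
mmu-miR-451a: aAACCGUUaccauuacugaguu
mmu-miR-191-5p: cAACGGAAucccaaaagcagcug
mmu-miR-34a-5p: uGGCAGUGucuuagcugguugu
mmu-miR-425-5p: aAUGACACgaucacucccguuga
mmu-miR-194-5p: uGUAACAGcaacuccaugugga

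No pair of these 6 has a seed in common. The gene of miR-451a, an RNA of the red cell line, was highest in HFD2 like the globins, while Mir16-1 was highest in HFD1 with 52809 RPKM. The table does not say which arm of a hairpin the reads came from.

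Promoters were searched for TATAA, the core of the TATA box, on the strand that has the sequence of the transcript. The window lay 40 to 16 bases before the transcript start of each RefSeq promoter entry. A gene can have several entries and was counted when any of them held the motif. Of the 30 highest genes with a promoter entry, 7 held TATAA in this window (23.3%), as did 21 of the 100 highest, 75 of the 1000 highest (7.50%) and 5.40% of 15094 genes. Of 14 MUP genes with an entry, 9 held it, and their promoters are copies of each other. The windows of 6 of the 7 genes are shown for their position, with TATAA in capitals.
Mup2: tgaacccagagagtaTATAAggaca
Mup10: actcagagattaTATAAggacaagc
Fabp1: agaatcccctTATAAaataggcaac
Hpx: gttaccagttctaTATAAgttcaac
Cyp2e1: acgacacgtTATAAaatccttgttt
Rbp4: tccccccggagcTATAAaggaccga

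The window of Mup2 lay at chr4:60139872-60139896 on the minus strand and that of Fabp1 at chr6:71199839-71199863 on the plus strand. The entries shown for Mup2, Mup10 and Rbp4 start inside the span of the gene, downstream of its outermost start, so that their windows lie within the gene as listed. In these 6 windows the first T of the motif lay 25 to 31 bases before the start of the entry. A match is a description of letters and says nothing of a factor bound there.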

How the data were processed

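Livers of 3 HFD mice were profiled by Ribo-seq. Reads were cleaned with cutadapt and bowtie2, aligned to GRCm38/mm10 with STAR and quantified with FANSE2 by the authors, and the values are the RPKM they deposited. Versions, annotation release, read lengths and the handling of reads matching several genes are not given in the sources used here. Read counts deposited by the authors for the libraries labelled RNA-seq were used only for the gene lengths they imply. The 3 Ribo-seq columns of the other group were not used.

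Reads were recovered from the steps of RPKM, with a tolerance of 0.01 read. A known length gave whole reads for 95.0% of 14120 coding genes above 0, so RPKM divides by a single length in these. For 9622 genes it was the length implied by the RNA-seq values, and for 3796 a RefSeq transcript length. No length was found for 37 entries, whose reads stayed unknown. Recovered totals were 2726202, 4405541 and 834410 reads. Counting error was taken as Poisson, covers counting alone, and was subtracted from the squared CV to give the excess CV, set to 0 where negative. This step was tested on simulated data. Coding lengths are of the RefSeq transcript nearest to the principal GENCODE transcript, in place of a table of proteins. Among the names 26 had become dates and 4 shared a name.

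Named genes were the 30 highest by mean RPKM, the 3 highest of each class, members of complexes, markers, the 12 most and 8 least variable genes with at least 1000 reads, and the 5 highest small RNA genes. A few of these are not reported here. Others are said to be chosen after their values were seen. The genes, classes and lists were chosen with earlier results of these data known. Of 1412 symbols in the classes 1381 were matched. Alternatives were other denominators, filters, pseudocounts and scalings, and leaving out each mouse. The values without the MUPs, the shorter form of Fga and the codon use were added after seeing the data. No comparison between groups was made and no test was run. Python 3.11.15, numpy 2.4.6, pandas 2.3.3, matplotlib 3.10.9 and pyfaidx 0.9.0.4 were used.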

Additional observations from a re-analysis of the deposited data

How the results depend on the processing

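The share of the plasma and urinary protein classes was 42.1% of the RPKM of protein-coding genes. It was 20.2% with small RNA genes in the total, 32.9% as a share of reads and 33.6% per coding length, and 42.2% for genes with at least 10 reads. Leaving out each mouse gave 39.7% to 44.7%. Without the MUPs among these classes but with the total kept, an alternative chosen after seeing the data, it was 30.3%, and 34.4% with the MUPs out of the total too. The 10 highest genes held 28.1%, and 44.3% with small RNA genes in the total, 20.9% as a share of reads, 24.0% per coding length, 23.2% with the MUPs left out of genes and total, and 26.1% to 30.3% with each mouse left out. Of all entries 11762 were above 0 in all 3 libraries, 9234 had at least 1 RPKM, 6437 had at least 10 reads, and 10842 were expected at the smallest depth. The lowest pairwise r was 0.967. It was 0.944 with a pseudocount of 0.1, 0.977 for the 3171 entries with at least 300 reads and 0.972 for protein-coding genes. For the 3086 protein-coding genes with at least 300 reads it was 0.973. The median excess CV was 0.156, and 0.104 after scaling by medians of ratios, 0.154 for genes with at least 1000 reads, and 0.0539 to 0.155 with each mouse left out. The value without HFD2 was the lowest, and the cause was not tested. The median ratio of highest to lowest subunit over 12 complexes was 2.25 by RPKM and 2.33 by coding length, and 2.15 to 2.35 with each mouse left out. With small RNA genes in the total, all 33 class shares moved by more than their SD. Of the 33, 26 moved as shares of reads and 19 per coding length. None of 33 moved with a minimum of 10 reads. With 3 mice, leaving 1 out cannot move a mean by as much as their SD. That alternative therefore could not show a move of a class share. Of 12 complexes, 4 moved by more than their SD per coding length. Choosing the variable genes after scaling, an alternative added after seeing the data, left 7 genes highest in HFD2 in place of 47, and 38 in HFD1 in place of 25. Depth limits low genes most in HFD3, where 1 read on 1 kb is worth 1.20 RPKM. No paired analysis was possible because the mice form 1 group and no groups were compared. Alternatives for hydrophobic N-termini were not run, as no table of proteins was used here.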
